A study of Mus musculus with 12 samples.

Results

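The genes described here are the 6 nuclear receptors for retinoids: the retinoic acid receptors Rara, Rarb and Rarg and the retinoid X receptors Rxra, Rxrb and Rxrg. The rule takes the named members of these 2 families and uses no measured value, though earlier results of these data were known when the families were chosen. All 6 are among the 19946 genes that could be followed over the cycle of the mouse seminiferous epithelium, and each was read by 1 probe set. The 12 arrays, of the type Affymetrix Mouse Gene 1.0 ST, each read RNA from whole adult testis.

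All 12 samples came from male mice of the mixed background 129/C57BL6. All had been given WIN 18,446, an inhibitor of retinoic acid synthesis, at 100 ug per g daily on 7 days, from 2 to 8 days postpartum. An injection of 200 ug of retinoic acid followed for all at 9 days postpartum, and the testes were taken 43 to 49 days later and staged by morphology. This treatment synchronizes spermatogenesis, so that most tubules of a testis stand at neighbouring stages of the cycle. The samples form 6 groups of 2. In the order of the cycle these are stages XII-I, II-IV and IV-VI, followed by stage VII and then stages VIII-IX and IX-XI. No untreated or unsynchronized testis is among them, so each group is compared with other synchronized groups only. Whether the 2 samples of each group are different animals is not said in the labels. The p-values given here therefore rest on sample-to-sample spread that may be technical.

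Each retinoic acid receptor works as a pair with a retinoid X receptor. The pair sits on DNA at repeats of a hexamer related to AGGTCA, holds corepressors while it is empty, and exchanges them for coactivators when retinoic acid binds. Retinoid X receptors also pair with receptors for thyroid hormone, vitamin D, fatty acids and oxysterols. In the mouse testis, Rara acts in Sertoli cells and Rarg in spermatogonia, male mice without Rara are sterile, and loss of Rxrb from Sertoli cells leads to lipid accumulation and failed release of spermatids. In the textbook account, retinoic acid is high around stages VIII to XI and starts spermatogonial differentiation and meiosis there.

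Rarb is itself a classical target of retinoic acid, through a direct repeat with a spacer of 5 bases (DR5) just upstream of its start. The windows from 250 bases before to 50 bases after each annotated start in RefSeq (build GRCm38.p6) were searched on both strands for 2 hexamers in the same direction, 5 bases apart, each of which could be AGGTCA, or else AGTTCA, or otherwise GGGTCA, or finally GGTTCA. Of the 13 windows of the 6 receptors, 1 held such a repeat, that of Rarb, against 32 of 32851 windows in all (0.0974%). Of the 92 windows of the pathway genes described further on, 1 held it, that of Cyp26a1, which encodes an enzyme that breaks retinoic acid down. The 120 bases before the start of these genes are shown because they hold the only DR5 matches among the receptors and their pathway, and both genes were higher in stages VIII to XI. They read 5′ to 3′ along the gene's own strand and end at the base before the start, with the hexamers in capitals. The Rarb stretch lies at chr14:16575477-16575596 on the minus strand, and the Cyp26a1 stretch at chr19:37697688-37697807 on the plus strand.
Rarb: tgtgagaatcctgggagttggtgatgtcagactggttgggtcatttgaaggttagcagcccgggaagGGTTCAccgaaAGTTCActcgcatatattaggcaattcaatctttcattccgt
Cyp26a1: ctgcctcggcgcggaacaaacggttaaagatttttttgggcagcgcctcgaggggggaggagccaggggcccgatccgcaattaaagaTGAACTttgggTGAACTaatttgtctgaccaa

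The Rarb repeat lies 53 to 37 bases before the start on the strand of the gene. The Cyp26a1 repeat lies 32 to 16 bases before the start on the opposite strand, so its hexamers are printed as their reverse complement. Repeats with spacers of 1 and 2 bases (DR1 and DR2), built from the same hexamers, were found in 0 of the 13 receptor windows, against 0.222% and 0.268% of all windows. A single hexamer, which lies inside every such repeat, was found in 7 of the 13 receptor windows and in 43.7% of all windows. These matches describe letters in short windows only.

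The values below are log2 intensities, on which 1 unit is a doubling. Means are given ± SD with n = 2, and their precision is limited by how few arrays there are. Levels of different genes are not ranked, since probe sets differ in brightness. In whole testes, fewer cells of a type and less RNA per cell cannot be told apart. Adjusted p-values come from limma's moderated tests over all 19946 genes (Benjamini-Hochberg, threshold 0.05).

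Median intensities of the 12 arrays lay between 296.9 and 309.1. The 2 samples of a group correlated at 0.987 to 0.995 across genes, which are not independent replicates. For 9 of the 12 arrays, the most similar array belonged to another stage group. XII-I sample 2 was most like II-IV sample 2, and II-IV sample 1 most like IV-VI sample 2. Both samples of VIII-IX were most like IX-XI sample 1, and that array was most like VIII-IX sample 1. Calls that are lost without a single array are given with the values without it.

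Rxra and Rxrg changed over the cycle, by 2.50-fold and 2.25-fold between their highest and lowest group means. Rxra was lowest in XII-I and II-IV and highest in VII and IX-XI. Rxrg was lowest in IV-VI and VII and highest in VIII-IX and XII-I. Rarb was higher in VIII-IX and IX-XI than in the other 4 groups, by 1.47-fold. Rara, Rarg and Rxrb spanned 1.24-fold, 1.11-fold and 1.16-fold and passed no test. In limma's F test over the 6 groups, 2 of the 6 receptors passed, against 19.9% of all genes. The median range of all genes was 0.34 on the log2 scale, beside 0.31 for Rara, 0.15 for Rarg and 0.21 for Rxrb. It was 0.81 for Rarb, 1.32 for Rxra and 1.17 for Rxrg.

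**Figure D1:**
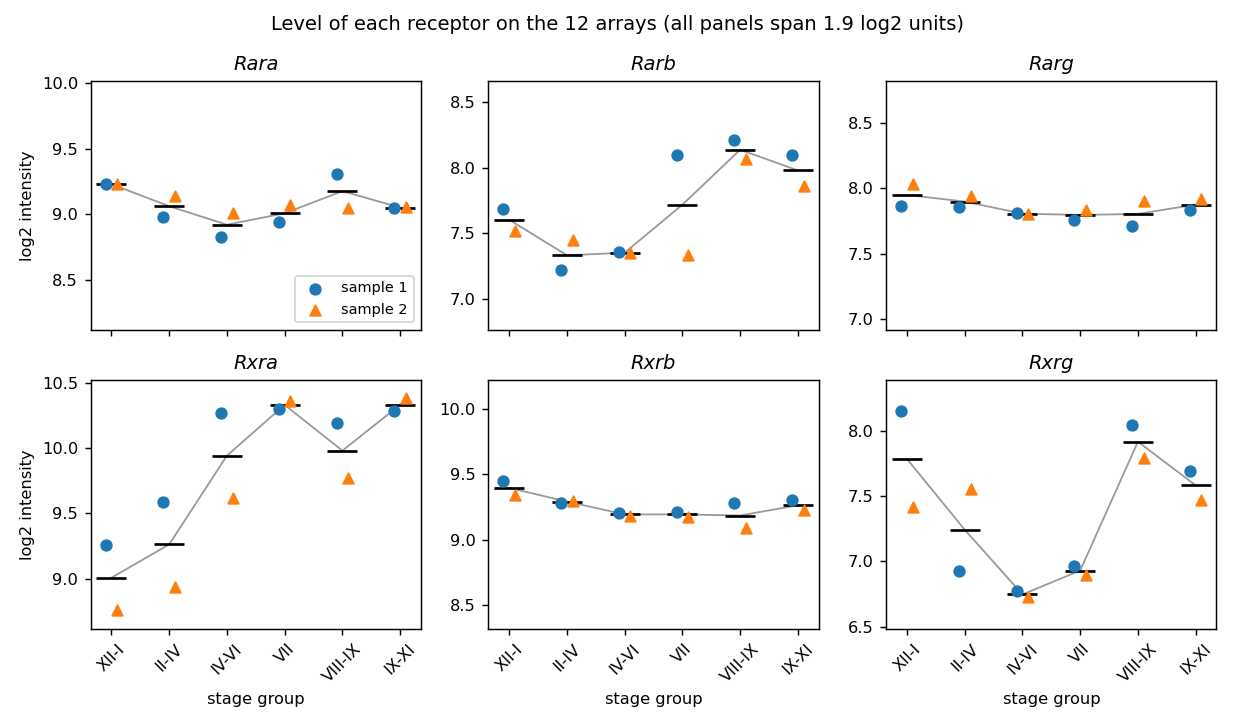
Log2 intensity of the 6 receptors on each of the 12 arrays, by stage group in the order of the cycle; points are samples, bars are group means and lines join them. The group means of Rxra run from 9.01 in XII-I to 10.33 in VII and IX-XI, and those of Rxrg from 6.75 in IV-VI to 7.92 in VIII-IX. The group means of Rara, Rarg and Rxrb each stay within 0.31.

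Rarb is a retinoic acid receptor whose own gene is known to respond to the ligand. Its levels in samples 1 and 2 were 7.69 and 7.52 in XII-I, 7.22 and 7.45 in II-IV, and 7.35 and 7.35 in IV-VI. They were 8.10 and 7.34 in VII, 8.21 and 8.07 in VIII-IX, and 8.10 and 7.86 in IX-XI. The 4 arrays of VIII-IX and IX-XI lay between 7.86 and 8.21, and 7 of the 8 others lay below all of them. VII sample 1 was the exception, at 8.10, while its partner lay 0.76 lower.

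The difference of VIII-IX and IX-XI from the other 4 groups was 0.56 ± 0.13 (SE, 95% interval 0.26 to 0.85, limma adjusted p = 0.015), and 11.2% of all genes were called higher in this contrast. A two-sided exact permutation test of the 4 against the 8 arrays gave p = 0.0101, with a smallest possible p of 0.00202. This test, also used below for Rxra and Rxrg, shuffled single arrays rather than whole stage groups. Its p-values therefore treat the samples of a group as independent, which is not known. Shuffling whole groups would allow fewer arrangements and so a larger smallest possible p, and was not done. The difference was called in 10 of 12 fits that each left out 1 array. It was 0.52 (limma adjusted p = 0.060) without VIII-IX sample 1 and 0.50 (limma adjusted p = 0.077) without IX-XI sample 1.

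Among single groups, Rarb was higher in VIII-IX than in IV-VI by 0.79 (limma adjusted p = 0.037), where 7.77% of genes were called higher. It was higher in VIII-IX than in II-IV by 0.81 (limma adjusted p = 0.038), where 6.21% were called higher. The first was called in 6 of the 12 fits without 1 array (limma adjusted p from 0.014 to 0.16) and the second in 4 (from 0.013 to 0.18). Leaving out either sample of IV-VI, VIII-IX or IX-XI ended the first call, and leaving out either sample of II-IV, IV-VI, VIII-IX or IX-XI ended the second. The second was also lost with array weights (limma adjusted p = 0.090).

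Over all 6 groups, the F test of Rarb gave an adjusted p of 0.077 in limma for a range of 0.81. The samples of VII have an SD of 0.54, the widest of any receptor in any group. Without VII sample 1 the same range gave a limma adjusted p of 0.019, and without VII sample 2 one of 0.026. Sertoli cell markers summed to 20738 on VII sample 1 and 27557 on VII sample 2, and Leydig cell markers to 15317 and 21254. The part of these cells in the gap between the VII samples was not tested.

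Rara, the main receptor of Sertoli cells, lay between 8.83 on IV-VI sample 1 and 9.31 on VIII-IX sample 1. Its samples were at 9.23 and 9.23 in XII-I, 8.98 and 9.14 in II-IV, 8.83 and 9.01 in IV-VI, 8.94 and 9.07 in VII, 9.31 and 9.05 in VIII-IX, and 9.05 and 9.05 in IX-XI. The groups overlapped along the whole order of their means, and the F test gave a limma adjusted p of 0.33. The difference of VIII-IX and IX-XI from the others was 0.06, with a 95% interval of -0.10 to 0.22 on the log2 scale.

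Rarg, the receptor of spermatogonia, lay between 7.71 and 8.03. Its samples were at 7.87 and 8.03 in XII-I, 7.85 and 7.94 in II-IV, 7.81 and 7.80 in IV-VI, 7.75 and 7.84 in VII, 7.71 and 7.90 in VIII-IX, and 7.83 and 7.91 in IX-XI. The limma adjusted p of its F test was 0.71, and the difference of VIII-IX and IX-XI from the others was -0.02 (95% interval -0.16 to 0.11). Spermatogonia are a small part of an adult testis, and 1 of the 8 measured markers of undifferentiated spermatogonia, Etv5, passed the F test.

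Rxra had the widest range of the 6. Its levels in samples 1 and 2 were 9.26 and 8.76 in XII-I, 9.59 and 8.94 in II-IV, and 10.27 and 9.62 in IV-VI. They were 10.30 and 10.36 in VII, 10.19 and 9.77 in VIII-IX, and 10.28 and 10.38 in IX-XI. Both samples of XII-I and both of II-IV lay below every sample of the other 4 groups, and the 2 samples of XII-I, II-IV and IV-VI stood 0.50 to 0.65 apart.

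The F test of Rxra gave a limma adjusted p of 0.029 for a range of 1.32. It was called in 5 of the 12 fits without 1 array, with limma adjusted p-values from 0.018 to 0.068. The call was lost without XII-I sample 2 (range 1.07, limma adjusted p = 0.061) and without either sample of VII, VIII-IX or IX-XI (limma adjusted p from 0.052 to 0.068).

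XII-I was lower than the mean of the other 5 groups in Rxra by a difference of -0.96 ± 0.21 (SE, limma adjusted p = 0.029), where 3.33% of genes were called lower. Leaving out XII-I sample 1 gave -1.21 (limma adjusted p = 0.094) and leaving out XII-I sample 2 gave -0.71 (0.16). The call was also lost without VIII-IX sample 1 (-0.92, limma adjusted p = 0.050) and without IX-XI sample 2 (-0.95, 0.057).

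Rxra was higher in VII than in XII-I by 1.32 (limma adjusted p = 0.017), where 5.14% of genes were called higher. It was higher in IX-XI than in XII-I by 1.32 (limma adjusted p = 0.019, against 4.63% of genes) and than in II-IV by 1.07 (limma adjusted p = 0.038, against 5.13%). These 3 calls held in 8, 9 and 7 of the 12 fits without 1 array. The first was lost without either sample of XII-I or VII, where the difference was 1.07 to 1.57 (limma adjusted p from 0.050 to 0.083). The second was lost without XII-I sample 2 or either sample of IX-XI, where it was 1.07 to 1.37 (0.076 to 0.13). The third was lost without II-IV sample 2 or either sample of VII or IX-XI, where it was 0.74 to 1.12 (0.054 to 0.17).

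The step from IX-XI to XII-I, which closes the cycle, was the only step between neighbouring groups at which any receptor was called. At the steps from XII-I to II-IV, II-IV to IV-VI, IV-VI to VII and VIII-IX to IX-XI, 0 of all 19946 genes were called. A lack of receptor calls at those steps therefore says nothing about the receptors in particular. Between VII and VIII-IX 784 genes were called, and between IX-XI and XII-I 2386. VIII-IX and IX-XI together were above the other 4 groups in Rxra by 0.52 (95% interval 0.14 to 0.89, limma adjusted p = 0.051), and the exact permutation test gave p = 0.14. Round spermatids are the haploid cells of the first part of the cycle. The summed intensity of their markers was 8435 and 16241 in XII-I, 30273 and 17716 in II-IV, 35649 and 31992 in IV-VI, 35856 and 31755 in VII, 22266 and 14792 in VIII-IX, and 22820 and 29715 in IX-XI. Within II-IV, IV-VI, VIII-IX and IX-XI, the sample with the higher Rxra level had the larger sum. Within XII-I and VII it had the smaller sum. Of these 8 markers, 3 passed the F test (Spaca3, Spaca4 and Catsper4), and their part in the level of Rxra was not tested.

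Rxrg is the member of its family best known from muscle and brain. Its levels in samples 1 and 2 were 8.15 and 7.42 in XII-I, 6.93 and 7.55 in II-IV, and 6.77 and 6.73 in IV-VI. They were 6.96 and 6.90 in VII, 8.04 and 7.79 in VIII-IX, and 7.69 and 7.47 in IX-XI. All 4 samples of IV-VI and VII lay below every sample of XII-I, VIII-IX and IX-XI, and the 2 samples of XII-I stood 0.73 apart. Its mean over the arrays was above that of 27.5% of genes, so it is among the dimmer probe sets.

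The F test of Rxrg gave a limma adjusted p of 0.037 for a range of 1.17. It was called in 4 of the 12 fits without 1 array, with limma adjusted p-values from 0.015 to 0.0999. The call was lost without either sample of IV-VI, VII, VIII-IX or IX-XI (range 1.04 to 1.29).

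Rxrg was higher in VIII-IX than in IV-VI by 1.17 (limma adjusted p = 0.017, against the 7.77% of genes called higher). This call held in 8 of the 12 fits and was lost without either sample of IV-VI or VIII-IX (difference 1.04 to 1.29, limma adjusted p from 0.061 to 0.10). It was lower in IV-VI than in XII-I, with a difference of -1.03 (limma adjusted p = 0.040, where 5.96% of genes were called lower), and lower in VII than in XII-I, with a difference of -0.85 (limma adjusted p = 0.047, where 10.9% were called lower). Both calls held in 3 of the 12 fits. Without XII-I sample 1 these differences were -0.67 (limma adjusted p = 0.21) and -0.49 (0.24). They were also lost without either sample of IV-VI, VII, VIII-IX or IX-XI, with limma adjusted p-values from 0.054 to 0.23 and from 0.062 to 0.16. The difference between VII and XII-I was also not called after repeated quantile normalization (-0.81, limma adjusted p = 0.061) or with array weights (0.051).

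VIII-IX and IX-XI together were above the other 4 groups in Rxrg by 0.57 ± 0.15 (SE, 95% interval 0.23 to 0.92, limma adjusted p = 0.025, against the 11.2% of genes called higher). The exact permutation test of 4 against 8 arrays gave p = 0.053, and 2 of the 8 other arrays lay above the lowest of the 4. The call held in 7 of the 12 fits without 1 array. It was lost without IV-VI sample 2 or either sample of VIII-IX or IX-XI, where the difference was 0.51 to 0.64 (limma adjusted p from 0.051 to 0.11). Markers of elongating spermatids summed in samples 1 and 2 to 67995 and 65327 in XII-I, 55880 and 65871 in II-IV, and 50696 and 53941 in IV-VI. They summed to 58403 and 55347 in VII, 73776 and 72754 in VIII-IX, and 68462 and 65157 in IX-XI. Of the 7 markers, 2 passed the F test (Tnp1 and Tnp2). Odf1 had its highest mean in IV-VI and Akap4 in II-IV, and the others had theirs in VIII-IX. Their part in the level of Rxrg was not tested.

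Rxrb, the retinoid X receptor needed in Sertoli cells, lay between 9.09 and 9.45. Its samples were at 9.45 and 9.34 in XII-I, 9.29 and 9.30 in II-IV, 9.21 and 9.18 in IV-VI, 9.21 and 9.18 in VII, 9.28 and 9.09 in VIII-IX, and 9.30 and 9.22 in IX-XI. The limma adjusted p of its F test was 0.40. The difference of VIII-IX and IX-XI from the others was -0.04 (95% interval -0.17 to 0.08).

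**Figure D2:**
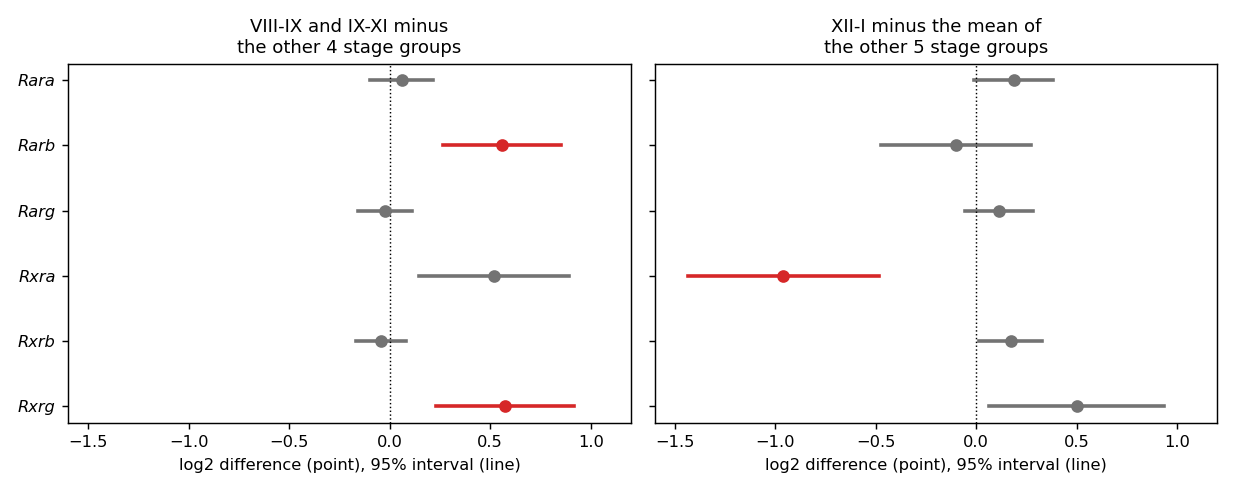
Log2 difference (point) with its 95% interval from limma (line) for each receptor, on the left for stages VIII-IX and IX-XI against the other 4 groups and on the right for XII-I against the mean of the other 5; red marks an adjusted p under 0.05. On the left the intervals of Rarb, Rxra and Rxrg lie above 0, with Rarb and Rxrg in red, and on the right only Rxra, at -0.96, is red.

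Set in order of their means, neighbouring groups lie close because of the sorting, so a lack of calls between them does not show that they are alike. Some of these group pairs called 0 of all 19946 genes. They were II-IV with XII-I, IV-VI or VII, IV-VI with VII, and VIII-IX with IX-XI. Of the 30 pairs of neighbours in these orders, 0 were called by limma and 1 had an unadjusted p under 0.05, and in 23 the samples overlapped. Rara ran in mean from IV-VI through VII, IX-XI, II-IV and VIII-IX to XII-I, and Rarb from II-IV through IV-VI, XII-I, VII and IX-XI to VIII-IX. For Rxra the lowest mean was that of XII-I, followed by II-IV, then IV-VI, VIII-IX and VII, and the highest that of IX-XI. Rxrg ran from IV-VI through VII, II-IV, IX-XI and XII-I to VIII-IX. Of the 15 pairs of groups, 3 were called for Rxra, 3 for Rxrg, 2 for Rarb and 0 for the other 3 receptors. At an unadjusted p under 0.05 these counts were 8, 7 and 5, with 2 for Rara, 0 for Rarg and 3 for Rxrb.

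Among the 15 receptor pairs, the range of the difference was widest for Rxra minus Rxrg, which was highest in VII and lowest in XII-I and spanned 2.17 on the log2 scale. An exact permutation test of the course of this difference over 10395 arrangements of the arrays gave p = 0.023, and 0.13 after adjustment over the 15 receptor pairs. Of these 15 pairs, 0 passed after adjustment and 4 had an unadjusted p under 0.05. The others were Rxra with Rxrb (p = 0.019), Rxrb with Rxrg (p = 0.037) and Rara with Rxra (p = 0.041), all by the exact permutation test. The Rxra and Rxrg pair passed without II-IV sample 1 (exact permutation test, adjusted p = 0.025) or II-IV sample 2 (0.043), and Rarb with Rxrb passed without VII sample 1 (0.039) or VII sample 2 (0.026). Across the 12 arrays, given as a description only, Rara correlated with Rxrg at r = 0.76, Rarb with Rxrg at 0.62, Rarg with Rxra at -0.67 and Rxra with Rxrg at -0.22.

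**Figure D3:**
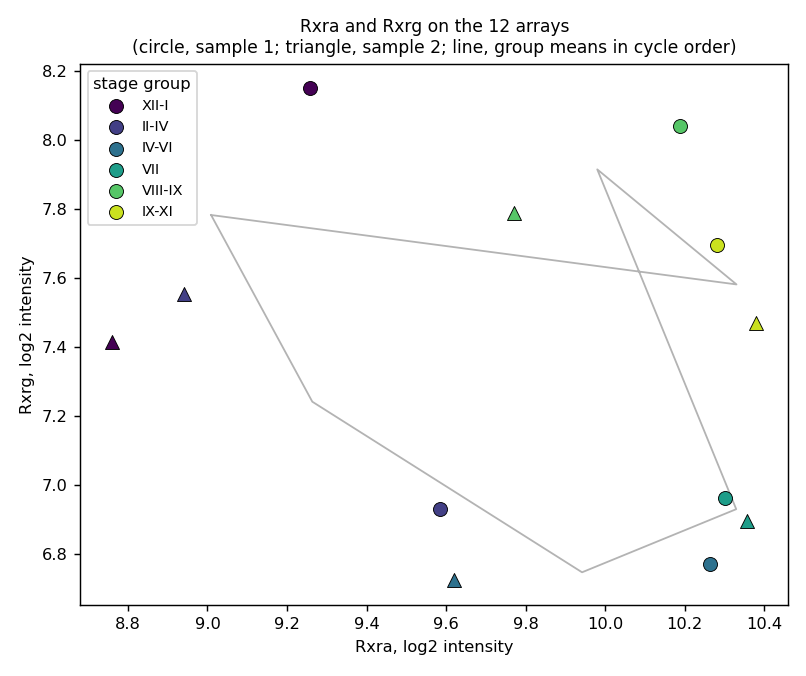
Log2 intensity of Rxrg against that of Rxra, 1 point per array, coloured by stage group (circles, sample 1; triangles, sample 2), with a line through the group means in the order of the cycle. The arrays of IV-VI and VII lie at 9.62 or more in Rxra and 6.96 or less in Rxrg, those of XII-I at 9.26 or less in Rxra, and those of VIII-IX and IX-XI at 9.77 or more in Rxra and 7.47 or more in Rxrg.

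For each receptor, the genes with the most similar course were sought among the 1577 or 1578 genes whose group means ranged by at least 1 on the log2 scale. Those nearest to Rxra were Mmachc, a vitamin B12 processing enzyme (r = 0.99 over 12 arrays), Lrrd1 (0.99), whose range was 10.6-fold, and Etnk1, an ethanolamine kinase (0.98). Those nearest to Rxrg were Car9, a carbonic anhydrase (0.99), Cdkn2d, an inhibitor of cyclin-dependent kinases (0.98), and Oit3 (0.98). Those nearest to Rarb were Lnpk, which shapes junctions of the endoplasmic reticulum (0.93), Cyp4f41-ps (0.92) and Bpifa6 (0.91). The genes nearest to Rara were Ocln, of tight junctions (0.88), Klk1b9 (0.86) and Nqo2 (0.86), and those nearest to Rxrb were Josd1 (0.78), Cyp2c23 (0.77) and Amt (0.77). For Rarg, whose range is within the spread of its samples, Rsl1 (0.76), Ssxb5 (0.71) and Slc6a20b (0.71) came first, and these fell to 0.46, 0.47 and 0.37 without the 2 arrays farthest from the median. The points share arrays and stage groups, and Klk1b9, Cyp4f41-ps and Ssxb5 belong to families whose copies a probe set may not separate.

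The partners of the receptors were followed through 8 lists of pathway genes, of which 76 of 83 were measured. In the F test 22 of the 76 passed (28.9%, against 19.9% of all genes). In VIII-IX and IX-XI against the other 4 groups, 13 were called higher and 15 lower, where 11.2% and 11.9% of all genes were. The count past the F test was 7 to 24 when 1 array was left out, and 7 to 13 without either sample of IV-VI, VIII-IX or IX-XI or without VII sample 2.

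Corepressors sit on empty receptors. Of 7 measured, 3 were lower in VIII to XI (Hdac3, Sin3a and Tbl1x) and 0 higher, with a median difference of -0.16 against 0.02 over all genes. Sin3a, a scaffold for histone deacetylases, was highest in II-IV at 10.56 ± 0.03 and lowest in VIII-IX at 9.52 ± 0.05 (2.05-fold, limma adjusted p = 0.021). Tbl1x, a subunit of the corepressor complex, was at 10.26 ± 0.08 and 9.46 ± 0.08 in the same groups (1.74-fold, limma adjusted p = 0.027).

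Coactivators, which the receptors recruit with ligand, went both ways. Of 10 measured, 5 passed the F test, and 2 were higher and 4 lower in VIII to XI. The arginine methyltransferase Carm1 was highest in IX-XI at 12.28 ± 0.04 and lowest in XII-I at 11.30 ± 0.04 (1.97-fold), and the acetyltransferase Ep300 ranged 1.56-fold with its highest mean in IX-XI. The acetyltransferase Kat2b was highest in IV-VI at 9.69 ± 0.14 and lowest in IX-XI at 8.83 ± 0.19 (1.82-fold), and Prmt1, another methyltransferase, ranged 1.52-fold with its lowest mean in VIII-IX.

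Of the other receptors that pair with retinoid X receptors, 1 of 12 measured passed the F test. This was Pparg, a fatty acid receptor, highest in VIII-IX at 8.73 ± 0.06 and lowest in XII-I at 8.27 ± 0.12 (limma adjusted p = 0.0499). In VIII to XI, 2 of the 12 were called higher and 0 lower: Pparg by 0.39 ± 0.07 (SE) and Vdr, the vitamin D receptor, by 0.60 ± 0.17 (SE). Among the 10 measured orphan receptors that bind direct repeats, 3 passed and 2 were called higher in VIII to XI. Rora ranged 3.03-fold, with a highest mean of 10.36 ± 0.09 in IX-XI and a lowest of 8.76 ± 0.70 in IV-VI, while Nr2c1 ranged 1.63-fold with its highest mean in XII-I and Nr2c2 1.37-fold with its highest in IX-XI.

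Of 16 other nuclear receptors measured, 4 passed, and 2 were called higher and 2 lower in VIII to XI. Nr0b1, a repressor of steroidogenic gene expression, was highest in IX-XI at 11.25 ± 0.03 and lowest in II-IV at 9.88 ± 0.24 (2.57-fold). Esrrb ranged 2.73-fold, with its highest mean in IV-VI and its lowest in VIII-IX. The circadian repressor Nr1d1 ranged 1.99-fold, also from IV-VI to VIII-IX, and Nr4a3 ranged 1.40-fold with its highest mean in IX-XI.

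Of the 9 measured genes that supply retinoic acid, 2 passed the F test, and both were highest in IX-XI. Rdh10, which oxidizes retinol to retinaldehyde, was at 11.38 ± 0.10 in IX-XI and 9.07 ± 0.26 in II-IV (4.96-fold, limma adjusted p = 0.011). Stra6, a receptor for the retinol carrier, was at 9.73 ± 0.13 and 8.18 ± 0.07 in the same groups (2.93-fold, limma adjusted p = 0.011). In VIII to XI these 2 were called higher and 2 others lower. Lrat, which stores retinol as esters, differed by -0.68 ± 0.15 (SE, limma adjusted p = 0.013), and Aldh1a1, which makes retinoic acid from retinaldehyde, by -0.39 ± 0.12 (0.048).

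Of the 6 genes for carriage and removal of retinoic acid, 2 passed, and in VIII to XI 1 was called higher and 1 lower. Crabp1, a cellular retinoic acid binding protein, was highest in II-IV at 10.75 ± 0.06 and lowest in IX-XI at 9.88 ± 0.06 (1.83-fold). Cyp26a1, whose upstream sequence is printed above beside that of Rarb, was highest in VIII-IX at 7.11 ± 0.25 and lowest in IV-VI at 6.25 ± 0.02 (1.82-fold, limma adjusted p = 0.025). Cyp26a1 was higher in VIII to XI by 0.56 ± 0.09 (SE, limma adjusted p = 0.0037), beside 0.56 ± 0.13 for Rarb. Its probe set is a dim one, with group means of at most 7.11, below the mean of 7.37 of the dim Rxrg probe set over the arrays. Of the 31 genes with a DR5 match, 11 were measured, and 2 of them were called higher in VIII to XI, namely Rarb and Cyp26a1 (18.2%, against 11.2% of all genes). Of the same 11, 1 was called lower (Cfap45). Rarb and Cyp26a1 are the genes printed above with these values known, so they do not count as a separate test. A set of 11 genes is too small to tell its share from that of all genes.

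Of the 6 germ cell genes known to respond to retinoic acid, 3 passed. In VIII to XI 2 were called higher (Stra8 and Sall4) and 3 lower (Rec8, Sohlh2 and Kit). Stra8, which starts meiosis, was highest in IX-XI at 8.40 ± 0.09 and lowest in II-IV at 7.07 ± 0.16 (2.53-fold, limma adjusted p = 0.011). Rec8, a meiotic cohesin, was highest in IV-VI at 10.94 ± 0.05 and lowest in VIII-IX at 8.85 ± 0.49 (4.25-fold). Sohlh2, a transcription factor of spermatogonia, was highest in II-IV at 9.80 ± 0.04 and lowest in VIII-IX at 8.51 ± 0.07 (2.44-fold).

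**Figure D4:**
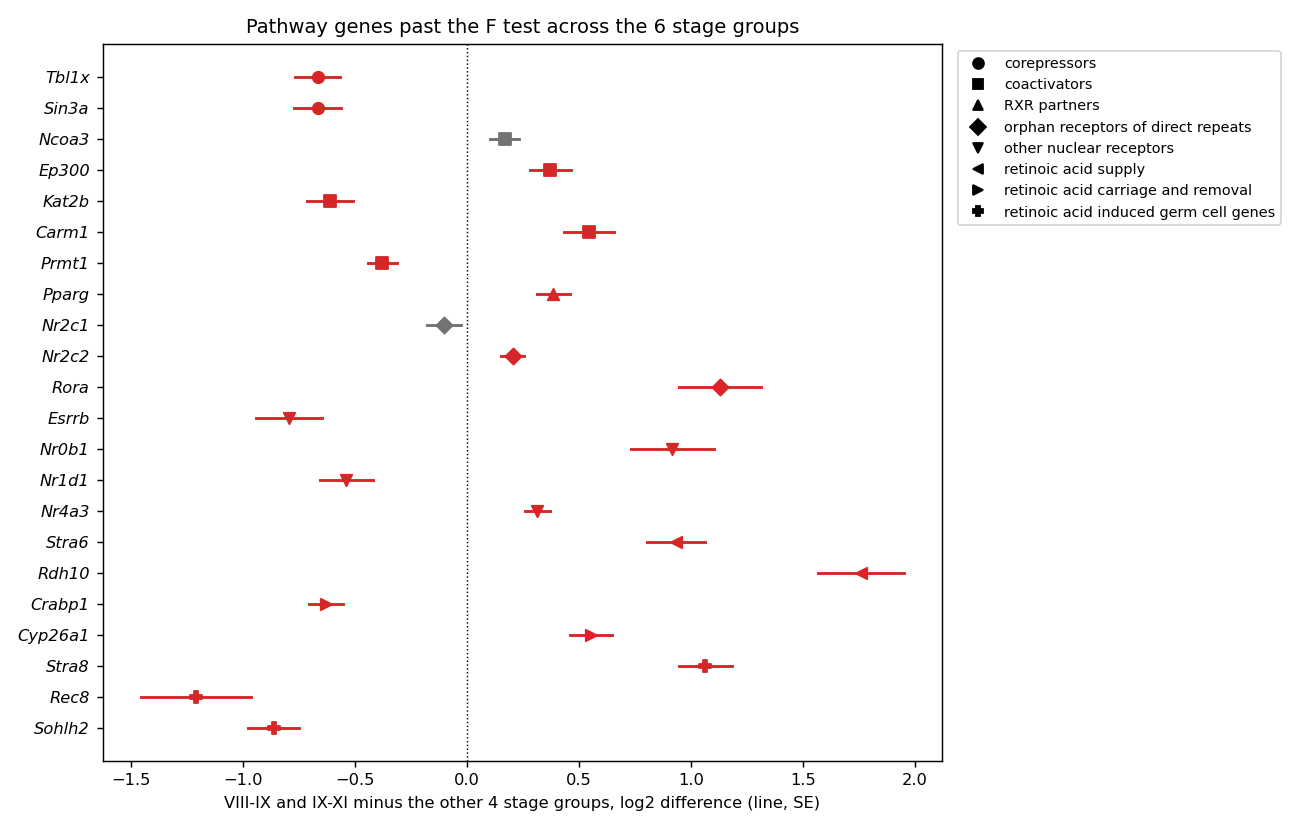
Log2 difference of stages VIII-IX and IX-XI from the other 4 groups for the 22 pathway genes past the F test, with its SE from limma; marker shapes give the list and red marks an adjusted p under 0.05. Rdh10 at 1.76, Rora at 1.13 and Stra8 at 1.06 lie farthest to the right, and Rec8 at -1.21 farthest to the left.

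The tissue label was checked against 12 lists of cell type markers, of which 71 of 79 genes were measured and 12 passed the F test. Markers of elongating spermatids summed to 50696 to 73776 over the 12 arrays. Of 11 Sertoli cell markers 0 passed limma's F test, 3 had an unadjusted p under 0.05, and their summed intensity ran from 18556 to 27557. Of 5 Leydig cell markers 0 passed (1 at an unadjusted p under 0.05), with sums of 8381 to 21254. In VIII-IX and IX-XI, where Rarb and Rxrg were higher, 3 of these 5 were called lower, against 11.9% of all genes. Star differed by -0.74 (limma adjusted p = 0.024), Cyp17a1 by -0.37 (0.029) and Cyp11a1 by -0.66 (0.048). Of 2 red blood cell markers, Alas2 was called lower there (-1.67, limma adjusted p = 0.0016), and their sums ran from 324 to 1526. Other lists held calls there too. Of 5 early spermatocyte markers 2 were called higher (Prdm9 and Dmc1) and 1 lower (Meiob). Of 7 elongating spermatid markers 2 were called higher (Tnp1 and Tnp2) and 0 lower, against 11.2% of all genes called higher. The lists of Sertoli cells, undifferentiated spermatogonia and macrophages each had 1 marker called lower and 0 higher. The part of these cells in the levels of Rarb and Rxrg was not tested. Of 4 epididymal markers 0 passed (0 at an unadjusted p under 0.05), with sums of 326 to 421.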

How the data were processed

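The authors deposited 1 table of intensity values for 28853 probe sets on 12 arrays, made with RMA (background correction, quantile normalization and probe summary) per the submitters' processing notes. For RMA, a version was not given in the sources used here. Deposited values ran from 24.97 to 21760 on a linear scale and were turned to log2 here, with nothing added. RMA makes array distributions alike, so a change in total RNA cannot be seen. Probe sets with 1 gene symbol (21797) were used, those with several (1613) or not listed (5443) were left out, and the brightest set per gene was kept, which left 19946 genes.

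Group means were fitted with limma 3.58.1 in R 4.3.3 (lmFit and eBayes, 6 residual degrees of freedom, two-sided tests, Benjamini-Hochberg over all genes in each test, threshold 0.05), after the fit was tested on simulated data. Stage groups came from the sample labels. The receptors and gene lists were chosen with earlier results of these data known. Named genes are the 6 receptors, from each pathway list up to 4 members past the F test, taken by range of group means, and the 3 genes most correlated with each receptor; markers past the F test and genes behind small counts were named after their values were seen. Samples with the same number in the labels were not treated as pairs: of 15 correlations of their deviations between groups, 7 were over 0.1 and the range was -0.35 to 0.54. Alternatives covered normalization, dim genes, variance prior, array weights, probe sets and arrays left out. Some listed pathway genes are not reported here. Figures were drawn with matplotlib 3.10.9.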

Additional observations from a re-analysis of the deposited data

How the results depend on the processing

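The values below set each result beside its alternatives. With sample 2 of VIII-IX and sample 2 of IX-XI left out together, limma's F test called 19 genes in place of 3973 and 0 of the 6 receptors, and the contrast of VIII-IX and IX-XI with the other 4 groups called 1871 genes in place of 4594. In that fit, the range of Rxra was 1.32 (limma adjusted p = 0.12) and that of Rxrg 1.29 (0.13), the late differences were 0.65 for Rarb (0.072), 0.69 for Rxrg (0.092) and 0.023 for Rxrb (0.87, sign turned), and Rxra in XII-I differed by -0.99 (0.067). Of the 76 pathway genes it called 0, in place of 22. Of the 8 calls of a receptor between single groups, it kept 1, Rxra in VII against XII-I. The cause was not tested, and this fit rests on 10 arrays. The late difference of Rxra passed the threshold after repeated quantile normalization (0.53, limma adjusted p = 0.033), without the dimmest 30% of genes (0.52, 0.041), with an intensity trend (0.52, 0.044) and with the sample number as a replicate block (0.52, 0.017). With array weights, the XII-I difference of Rxra was -0.96 (limma adjusted p = 0.067), and Rarb in VIII-IX against II-IV (0.090) and Rxrg in VII against XII-I (0.051) were not called. Under the replicate block the F test gave limma adjusted p-values of 0.014 for Rxra, 0.045 for Rxrg and 0.062 for Rarb, Rxrg in VII against XII-I was not called (0.052), and since the numbers do not pair the samples, it is given only here. Leaving out each array in turn gave 1522 to 4269 genes in the F test (1522 to 1983 without either sample of IV-VI, VIII-IX or IX-XI or without VII sample 2), 2275 (without IX-XI sample 1) to 4980 in the late contrast, 0 to 2 receptors past the F test and 0 to 1 receptor pairs with different courses. The ranges were 0.74 to 0.92 for Rarb, 1.07 to 1.57 for Rxra and 1.04 to 1.40 for Rxrg. The late differences were -0.0060 to 0.12 for Rara, 0.46 to 0.65 for Rarb, -0.071 to 0.025 for Rarg, 0.41 to 0.62 for Rxra, -0.092 to 0.0031 for Rxrb and 0.48 to 0.66 for Rxrg. Rxra in XII-I differed by -1.21 to -0.71. The signs of Rara and Rarg turned without VIII-IX sample 1 (-0.0060 and 0.025), and that of Rxrb without VIII-IX sample 2 (0.0031). Rxrg is among the dimmest 30% of genes and has no value under that filter.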
